A study of Arabidopsis thaliana with 12 samples.

Results

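MicroRNA precursor genes of Arabidopsis thaliana leaves are described here across age and genotype. They are the 37 genes, of 38338 rows in the deposited gene table, that the table types as miRNA and whose read counts over all 12 libraries sum to at least 100, with AT4G13493, AT4G13494 and AT4G06075 left out. The table types 315 rows as miRNA, of which 114 have 0 counts, 201 have a count and 40 reach the sum before the 3 are left out. The members were thus chosen by their summed read counts, over the same libraries that are compared below, and how high they stand is a description. Just inside the limit were MIR844 with 104 counts, MIR156d with 102 and MIR408 with 101, and just outside were MIR166a with 99, MIR396b with 97 and MIR393b with 96.

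Leaves of wild type plants (Col) and of the mutant line chlorella-1 were collected at 14 d and at 26 d, with 3 libraries in each of the 4 groups. The series' title describes CHLORELLA as a long noncoding RNA that goes to the chloroplast, and the design compares mutant with wild type at both ages. Libraries were made from total RNA with a stranded kit that removes ribosomal RNA. No gene called CHLORELLA was found in the table or the annotation, and genotypes were therefore taken from the labels without a check of the mutation. The labels give no treatment, do not describe the allele of chlorella-1, and do not say whether the libraries of a group came from separate plants, so the p-values measure the spread between these libraries, which may be technical.

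A plant microRNA gene is transcribed into a long primary transcript that folds into a hairpin. In the nucleus the Dicer enzyme DCL1, with HYL1 and SE, cuts the mature duplex out of the hairpin, HEN1 methylates its ends, and an Argonaute protein, mostly AGO1, uses it to find and silence matching messenger RNAs. Known pairs of microRNA and target include miR156 with SPL genes, miR167 with auxin response factors, miR169 with NF-YA genes and miR398 with copper/zinc superoxide dismutases. The counts here are reads of precursor loci and of anything that overlaps them, not of mature microRNAs.

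The 37 members carry 57 annotated mature sequences, of which 50 are distinct, 44 are 21 nucleotides long and 39 start with U. The sequences below, from RefSeq's annotation and genome TAIR10.1, belong to the members on which the results turn; capitals mark the seed, bases 2 to 8 from the 5′ end. The first pair shares the seed AGCCAAG, and the sequence given for miR169k is also that of MIR169i, MIR169j, MIR169l and MIR169m.
miR169k: uAGCCAAGgaugacuugccug
miR169a-5p: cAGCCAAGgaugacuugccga
miR167a-5p: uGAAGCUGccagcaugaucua
miR167d: uGAAGCUGccagcaugaucugg
miR841a-5p: uACGAGCCacuugaaacugaa
miR841b-5p: uACGAGCCacuggaaacugaa
miR398b-3p: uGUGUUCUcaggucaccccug
miR408-3p: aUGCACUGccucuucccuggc
miR168a-5p: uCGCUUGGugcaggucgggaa
miR163: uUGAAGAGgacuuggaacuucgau
miR826a: uAGUCCGGuuuuggauacgug
miR419: uUAUGAAUgcugaggauguug
The miR167 pair and the miR841 pair each share a seed too, and MIR398c has the same mature sequence as miR398b-3p. To show how the seed meets a target, the listed NF-YA genes were searched for the best site without gaps; all 7 held a site for miR169k in the 3′ UTR. Capitals here mark bases with no Watson-Crick partner in the microRNA.
NFYA1 site: cCggcaaAucauUcuuggcuU
NFYA3 site: AGggGaagucauccuuggcua
NFYA8 site: AaggGaagucauccuuggcuG
NFYA10 site: caggcaaAucaucUuuggcuC
A site is a match of letters and not evidence of cleavage. ARF6 and ARF8 held a site for miR167a-5p and AGO1 held a site for miR168a-5p. For miR167d the search found a site in ARF8 and none within the limit in ARF6. It found none for miR398b-3p in CSD1, CSD2 or CCS (0 of 3), for miR162a-3p in DCL1 (0 of 1) or for miR396a-5p in the growth-regulating factor genes (0 of 7). Those pairs are named below as targets from background knowledge, and a search without gaps does not find sites with a bulge.

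Libraries held 45120547 to 70452171 gene counts, and nuclear genes took 26.9% to 49.4% of them. The members together held 63592 counts, 3465 to 7251 per library, and 74.5% of these came from MIR5642a and MIR4228. Levels are given in CPM, the read count scaled to a common library size, in which 1 count was worth 0.0138 to 0.0229 CPM. Sums were under 500 counts for 28 members and under 200 for 17, so most values rest on few reads per library. Marker genes moved with the groups: mesophyll genes summed to 316 to 660 CPM in 26 d chlorella-1 against 2620 to 4360 in 26 d Col and 7780 to 11300 at 14 d, with none of 4 genes at 0. Guard cell genes summed to 35.1 to 40.3 CPM in 26 d chlorella-1 against 5.78 to 9.8 elsewhere, carried by KAT1 (mean 31.0 against 4.79 CPM in Col at 26 d) and FMA (6.23 against 1.79), while MYB60 had 0.641 against 0.657. The 5 pollen genes summed to 9.81 to 39 CPM there, with none at 0, against at most 0.417 CPM elsewhere, where 2 to 4 of them were at 0. The 6 floral organ genes summed to 2.19 to 2.91 CPM there against at most 1.25 elsewhere, mostly from PI (mean 1.78 against 0.609 CPM in Col at 26 d), while SEP3 had 0.0504 against 0.227 and AG 0.139 against 0.152. With age the 7 genes of the shoot apex and dividing cells went from 1.76 to 2.47 CPM to 0.0765 to 0.443 in Col and from 1.41 to 1.92 to 0.206 to 0.345 in chlorella-1, with 3 or 4 of them at 0 in each group. The 3 phloem genes went from 364 to 377 CPM to 205 to 226 in Col and from 393 to 455 to 290 to 533 in chlorella-1. The part of these markers in the results below was not tested. In whole leaves, fewer cells of a type and less RNA per cell cannot be told apart.

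**Figure D1:**
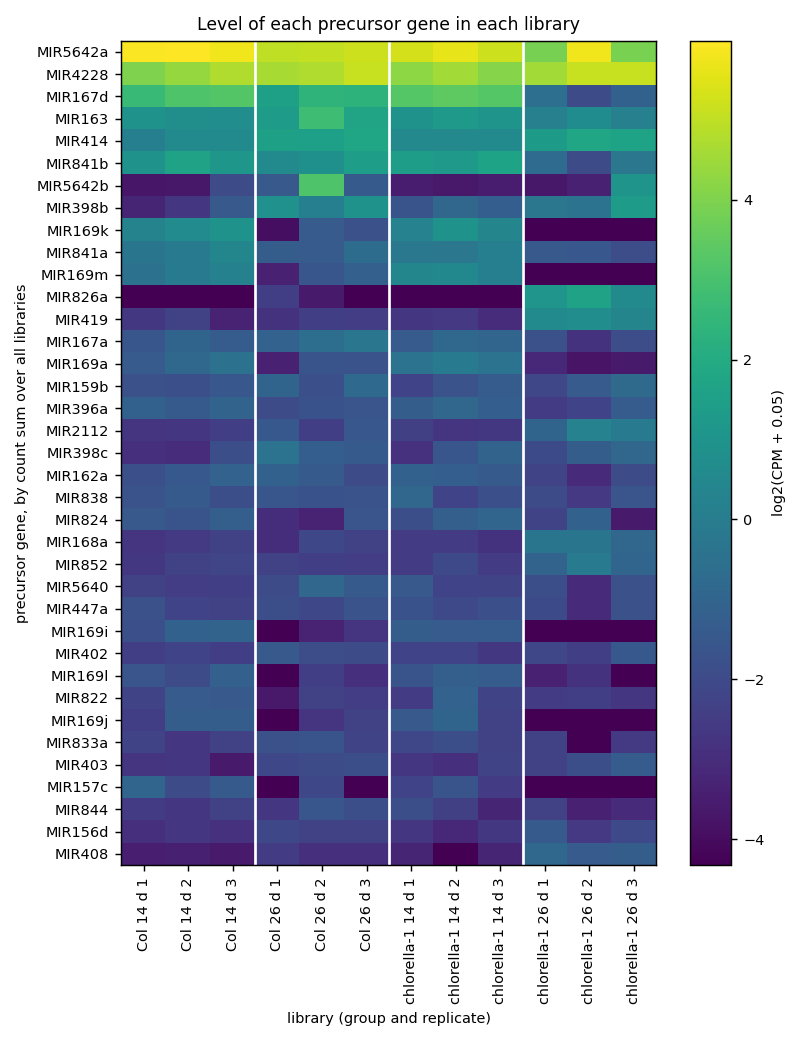
Colour gives the level, as log2(CPM + 0.05), of each of the 37 precursor genes (rows, by summed counts) in each of the 12 libraries (columns, 3 per group). MIR169i, MIR169j, MIR169k, MIR169m and MIR157c are at 0 counts in the 3 chlorella-1 libraries at 26 d, and MIR826a is at 0 in the 6 libraries at 14 d.

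At 14 d the precursor genes of chlorella-1 and Col leaves did not differ by the test. None of the 37 members passed an adjusted p of 0.05 in the quasi-likelihood test of edgeR, adjusted over all 20398 genes tested by Benjamini-Hochberg, none had an unadjusted p under 0.05, and neither DESeq2 nor limma voom called any. Of all genes, 0.162% were called, 0.118% as higher and 0.0441% as lower. The members' median log2 fold change was 0.10 beside 0.00 over all genes. In a fit of only the libraries at 14 d, which called 14.6% of genes (6.4% higher, 8.19% lower), 1 of 25 members tested passed: MIR5642a was lower in chlorella-1, with 61.5, 63.4 and 54.2 CPM in Col and 40.0, 48.0 and 36.9 in chlorella-1 (log2 fold change -0.52, SE 0.11, adjusted p = 0.00805).

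At 26 d the genotypes differed. In chlorella-1 6 members were higher and 9 lower than in Col, which is 40.5% of the members, beside 63.3% of all genes tested (31.5% higher, 31.8% lower). The 6 higher members reached the sum of 100 counts only with their 26 d chlorella-1 libraries, so that number is a description. All 37 members had passed the filter on low counts, as had the genes behind the 63.3%. With no filter the share of all genes was 45.8%, over a set that adds genes with too few reads for the filter. The members' median was -0.41 beside -0.11 over all genes, and it stayed -0.41 with members at 0 counts set to their bound.

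At 26 d 5 of the 6 members of the miR169 family were lower in chlorella-1 in the fit of all 12 libraries. These 5 held too few reads at 26 d to enter a fit of only the 26 d libraries, which tested 27 members. Targets of this family encode NF-YA subunits of the CCAAT-binding factor NF-Y. Of its 6 members, 5 lie in a row on the minus strand of chromosome 3 (TAIR10.1), from MIR169i at 9871960 to MIR169m at 9878379, as close pairs: MIR169i and MIR169j are 168 bp apart, and MIR169k and MIR169l 156 bp apart. In 14 d leaves MIR169k stood at 1.16, 1.53 and 1.93 CPM (Col) and at 1.14, 1.93 and 1.23 CPM (chlorella-1). At 26 d it stood at 0.0153, 0.341 and 0.246 CPM in Col and had 0 counts in all 3 chlorella-1 libraries. The 14 d libraries of both genotypes lay above every 26 d library, and the lowest Col library at 26 d held 1 read.

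For MIR169m the 14 d levels were 0.674, 0.889 and 1.10 CPM (Col) and 1.28, 1.36 and 1.05 CPM (chlorella-1). At 26 d it had 0.0459, 0.289 and 0.394 CPM in Col and 0 in chlorella-1. With the group at 0 set to 3 counts in all, MIR169k was at least 10.9-fold lower and MIR169m at least 13.3-fold lower in chlorella-1 than in Col at 26 d (adjusted p = 0.00427 and 0.00117). MIR169i and MIR169j, also at 0 counts there, were at least 2.72-fold and 4.54-fold lower (adjusted p = 0.0273 and 0.0267), from 9 and 15 counts in Col, where replicate 1 was also at 0 for both. Both calls were lost in limma voom (adjusted p = 0.111 for MIR169i and 0.117 for MIR169j). They were lost without Col replicate 3 (0.0857 and 0.0733), chlorella-1 replicate 1 (0.062 and 0.0606) or chlorella-1 replicate 3 (0.0568 and 0.056), and MIR169j also without Col replicate 2 (0.0535).

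MIR169a, on chromosome 3 at 4358994 to 4359219 and away from that cluster, had 0.0459, 0.272 and 0.263 CPM in Col and 0.0604, 0.0229 and 0.0345 in chlorella-1 at 26 d. The groups overlapped, and the log2 fold change was -2.18 (SE 0.69, adjusted p = 0.0169). The call for MIR169a was lost in limma voom (adjusted p = 0.0873), without Col replicate 2 (0.0572) or 3 (0.0548), and without chlorella-1 replicate 3 (0.0538). It shares 14 bp with the end of AT3G13404, an exon on the same strand, and that gene was lower too (log2 fold change -2.08, SE 0.60, adjusted p = 0.0103). MIR169l, with 3, 4 and 0 counts in chlorella-1, did not pass (log2 fold change -0.71, SE 1.04).

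With age 3 of the 6 fell in Col, where 20.2% of all genes fell, and all 6 in chlorella-1, where 36% did. MIR169i, MIR169j and MIR169l reached the count sum that defines members only with their 14 d libraries of both genotypes. Their falls rest on reads that also chose them. These falls, and the numbers of members that fell, thus stand as a description. In Col MIR169k (log2 fold change -2.94, SE 0.67, adjusted p = 0.00698), MIR169i (-2.82, SE 0.78, adjusted p = 0.0174) and MIR169m (-1.87, SE 0.58, adjusted p = 0.0286) were lower at 26 d. The calls of MIR169i and MIR169m were lost without Col replicate 2 at 14 d (0.0613 and 0.0704), replicate 3 at 14 d (0.0598 and 0.0876) or replicate 2 at 26 d (0.0514 and 0.0527). In chlorella-1 all 6 members were lower at 26 d: MIR169k at least 81.4-fold, MIR169m at least 69.4-fold, MIR169i at least 19.4-fold and MIR169j at least 17.5-fold, and MIR169a by a log2 fold change of -4.15 (SE 0.67, adjusted p = 0.000163) and MIR169l by -2.90 (SE 0.95, adjusted p = 0.0163). MIR169l lost its call without chlorella-1 replicate 1 (0.0509) or 3 (0.0536) at 26 d. Over the 12 libraries MIR169k and MIR169m correlated with r = 0.98, MIR169k and MIR169a with 0.97, MIR169i and MIR169j with 0.95 and MIR169k and MIR169l with 0.91, as a description over libraries that share group and depth. MIR169i, MIR169k and MIR169m hairpins are 83.6% to 89.2% identical to each other, and those of MIR169j and MIR169l 88.8%. The counting could thus split reads within each of these sets.

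Of the 7 NF-YA genes, 3 were higher and 1 lower in chlorella-1 at 26 d, beside 31.5% of all genes higher and 31.8% lower. At that age NFYA1 had 9.13, 7.34 and 10.3 CPM (Col) against 43.8, 37.5 and 24.0 CPM (chlorella-1), without overlap (log2 fold change 1.98, SE 0.21, adjusted p = 1.42e-05). NFYA5 (log2 fold change 1.30) and NFYA9 (0.82) were higher as well, with adjusted p = 0.000334 and 0.000586. NFYA8 was lower (-1.31, SE 0.38, adjusted p = 0.011), and NFYA2, NFYA3 and NFYA10 did not pass (0.46, 0.37 and -1.16). With age, 5 of the 7 rose in Col and none fell, beside 19.3% of all genes higher and 20.2% lower. In chlorella-1 5 rose and 1 fell, beside 35.2% of all genes higher and 36% lower.

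**Figure D2:**
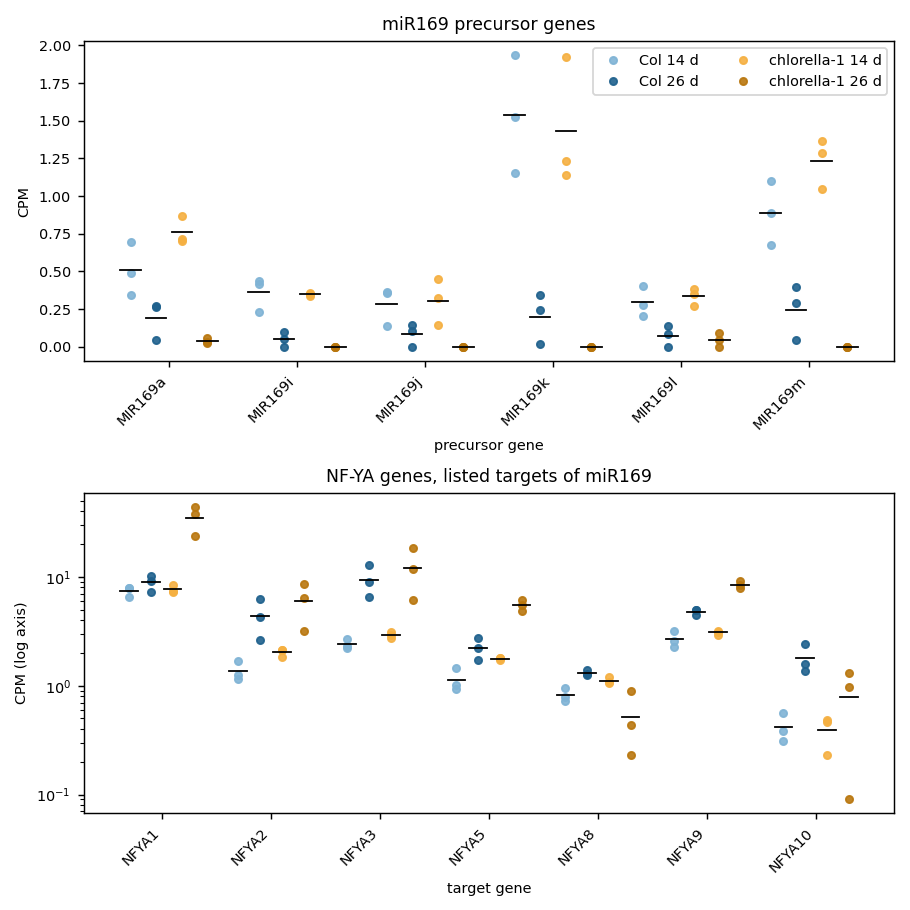
Each point is the CPM of a library and each bar the mean of 3, for the 6 miR169 precursor genes (top, linear axis) and the 7 NF-YA genes (bottom, log axis) in the 4 groups. MIR169i, MIR169j, MIR169k and MIR169m are at 0 in chlorella-1 at 26 d, where NFYA1 stands at 24.0 to 43.8 CPM.

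miR167 restrains the auxin response factors ARF6 and ARF8. MIR167d, on chromosome 1 at 11137539 to 11137915 and overlapping no other gene, had 14 d levels of 6.10, 8.88 and 9.22 CPM (Col) and 9.51, 10.7 and 9.52 CPM (chlorella-1). At 26 d it had 2.89, 5.19 and 4.97 CPM in Col and 0.635, 0.206 and 0.414 in chlorella-1. The groups did not overlap at 26 d, and MIR167d was lower in chlorella-1 (log2 fold change -3.33, SE 0.35, adjusted p = 1.14e-05). With age it fell in chlorella-1 (-4.52, SE 0.36, adjusted p = 6.03e-07) and in Col (-0.89, SE 0.30, adjusted p = 0.0324). The call in Col was lost with the replicate block (0.0503) and without replicate 2 (0.101) or 3 (0.107) at 14 d or replicate 1 (0.137) or 3 (0.0603) at 26 d. MIR167a was also lower in chlorella-1 at 26 d (-1.67, SE 0.43, adjusted p = 0.00558), with 0.428, 0.613 and 0.788 CPM in Col against 0.242, 0.0915 and 0.224. ARF6 (-0.68, SE 0.26, adjusted p = 0.0349) and ARF8 (-1.31, SE 0.34, adjusted p = 0.00587) were lower there as well, so both target genes and both precursor genes were lower.

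MIR163 and MIR841b were lower in chlorella-1 too. MIR163, whose mature form is 24 nucleotides long, had 2.57, 6.89 and 3.18 CPM in Col and 1.07, 1.55 and 1.07 in chlorella-1 at 26 d, without overlap (log2 fold change -1.78, SE 0.34, adjusted p = 0.000812). It rose with age in Col (1.31, SE 0.33, adjusted p = 0.00869). MIR841b had 1.44, 1.75 and 2.59 CPM in Col and 0.559, 0.206 and 0.793 in chlorella-1 (-1.86, SE 0.40, adjusted p = 0.00182), and the pseudogene AT4G04409, with which it shares 210 bp of exon on the same strand, was lower too (-1.66, SE 0.44, adjusted p = 0.00594). MIR841a did not pass at 26 d (-0.61, SE 0.35). It fell with age in Col (-1.17, SE 0.33, adjusted p = 0.0159), a call lost without replicate 3 at 14 d (0.0778) or replicate 1 (0.0663) or 2 (0.054) at 26 d, and in chlorella-1 (-1.66, SE 0.35, adjusted p = 0.00113).

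**Figure D3:**
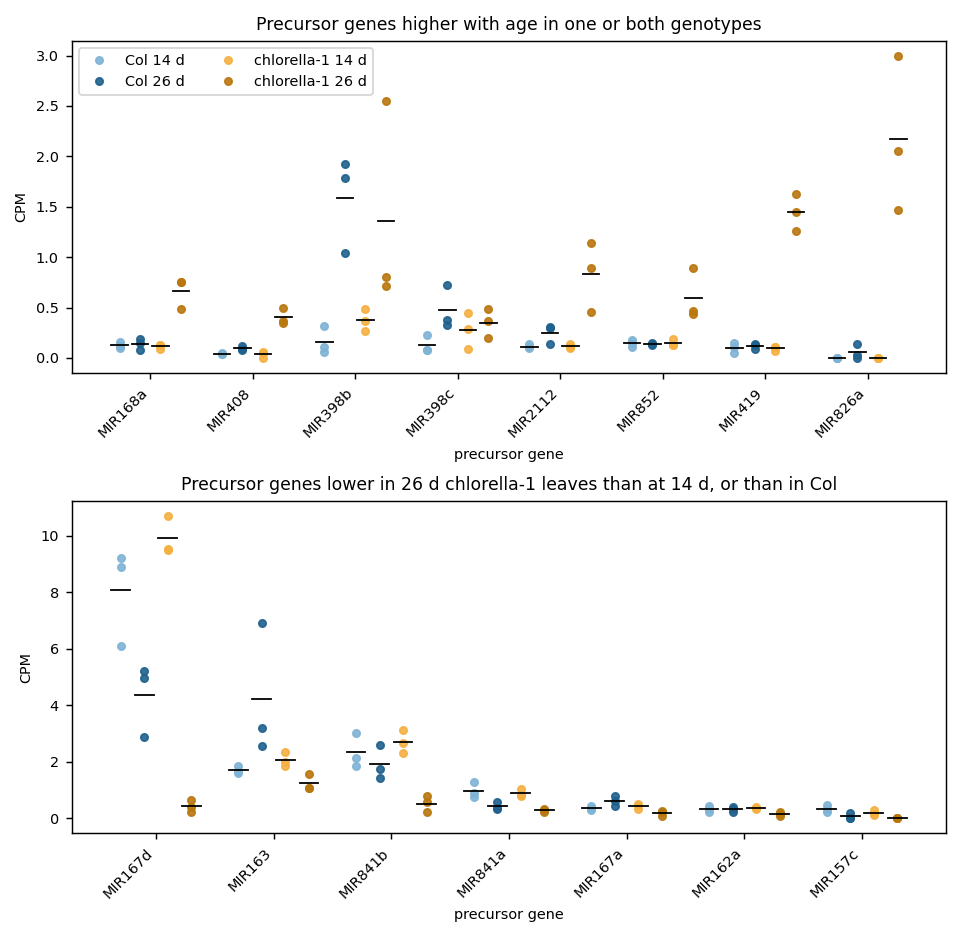
Each point is the CPM of a library and each bar the mean of 3 in the 4 groups. The top panel holds precursor genes higher with age in a genotype, and the bottom panel holds genes lower in chlorella-1 at 26 d than at 14 d or than in Col; MIR826a stands at 1.47 to 3 CPM in chlorella-1 at 26 d and at 0 in all 6 libraries at 14 d.

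Each of the 6 members higher in chlorella-1 at 26 d reached the sum of 100 counts only with its libraries of that group. Their calls thus rest on reads that also chose them, and stand as a description. Of the 6, MIR826a changed most. It had 0 counts in all 6 libraries at 14 d, 9, 2 and 0 counts in Col at 26 d, and 136, 131 and 85 counts in chlorella-1 at 26 d, or 2.06, 3 and 1.47 CPM. The log2 fold change between genotypes was 5.16 (SE 0.85, adjusted p = 0.0012), and with age it was at least 121-fold higher in chlorella-1. The whole of MIR826a lies on the strand opposite to the ncRNA AT4G03038, which was higher as well (4.71, SE 0.57, adjusted p = 0.000227), as was AT4G03040, 427 bp downstream on the same strand (5.94, SE 0.96, adjusted p = 0.00107). On the opposite strand MIR826a also shares 94 bp with the microRNA gene MIR826b. The strand setting of the counting is not stated in the sources used here. Reads of MIR826a, AT4G03038 and MIR826b thus cannot be told apart where these genes overlap.

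MIR419 had 0.0917, 0.136 and 0.131 CPM in Col and 1.45, 1.62 and 1.26 in chlorella-1 at 26 d, and 0.0523 to 0.148 CPM in the 6 libraries at 14 d. The 26 d chlorella-1 libraries lay above all others (log2 fold change 3.57, SE 0.41, adjusted p = 2.17e-05). MIR419 lies 147 bp downstream of AT4G32440 and 452 bp upstream of MEF8S, both on its strand, and both were higher in chlorella-1 (3.75, SE 0.17 and 4.82, SE 0.16). The MIR419 hairpin folds with -26.9 kcal/mol per 100 nucleotides, close to MIR824 (-26.7) and MIR403 (-27.9). The 37 ranged from -51.1 (MIR822) to -19.4 (MIR414).

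MIR168a, whose product targets AGO1, had 0.0765, 0.187 and 0.148 CPM in Col and 0.755, 0.755 and 0.483 in chlorella-1 at 26 d, without overlap (log2 fold change 2.27, SE 0.45, adjusted p = 0.00111). AGO1 did not pass (0.28, SE 0.15, adjusted p = 0.114). MIR408, which targets laccases and the copper protein plantacyanin in Arabidopsis, had 0.122, 0.0851 and 0.0821 CPM in Col and 0.499, 0.343 and 0.362 in chlorella-1 (2.03, SE 0.61, adjusted p = 0.0121), a call lost without Col replicate 3 (0.0528). It lies opposite AT2G47020, which was lower (-0.87, SE 0.23, adjusted p = 0.00668). Of its 4 listed targets, LAC13 could be tested and was lower (-3.32, SE 0.75, adjusted p = 0.00238).

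Introns of genes on the same strand hold 8 of the members, where reads of the host's unspliced transcript cannot be told apart from reads of the precursor. MIR2112, within SPPL4, had 0.306, 0.136 and 0.295 CPM in Col and 0.453, 1.14 and 0.897 in chlorella-1 at 26 d (log2 fold change 1.74, SE 0.46, adjusted p = 0.00662), and SPPL4 was higher by 1.62 (SE 0.20, adjusted p = 3.59e-05). MIR852, within AT4G14500, had 0.153, 0.136 and 0.131 CPM in Col and 0.438, 0.892 and 0.466 in chlorella-1 (2.07, SE 0.45, adjusted p = 0.00185), and AT4G14500 was higher by 1.59 (SE 0.22, adjusted p = 7.78e-05). The other 6 did not pass. Among their hosts DCL1, which cuts most microRNA hairpins, was lower (-0.76, SE 0.16, adjusted p = 0.00187) around MIR838 (-0.41, SE 0.50), and the callose synthase gene CALS1 was lower (-1.52, SE 0.26, adjusted p = 0.000414) around MIR5640 (-0.88, SE 0.54).

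**Figure D4:**
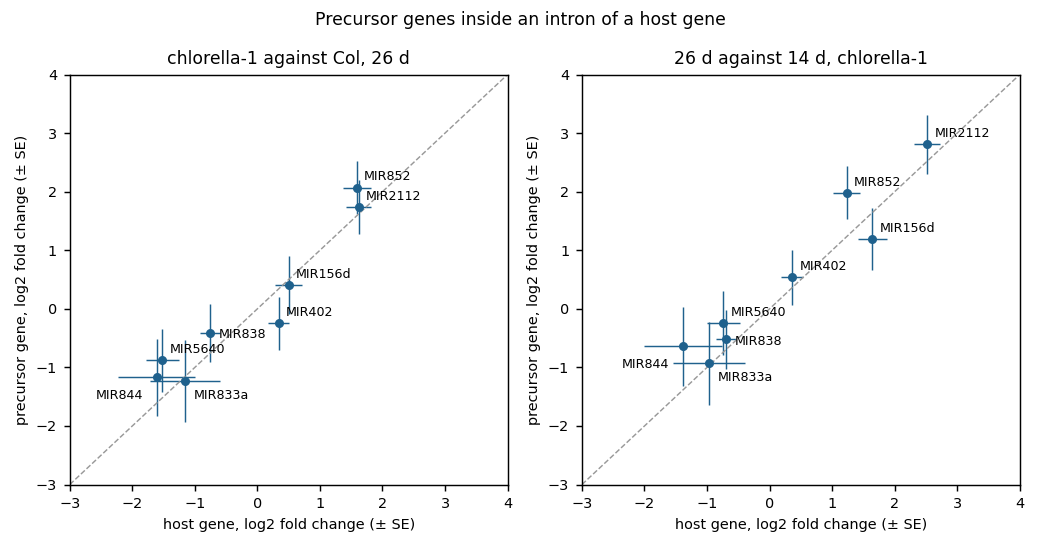
Each point is a precursor gene inside an intron of a host gene, with the host's log2 fold change on the horizontal and its own on the vertical axis (± SE); the dashed line marks equal change. MIR2112 and MIR852 lie at 1.62 and 1.59 on the host axis and at 1.74 and 2.07 on their own at 26 d.

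The age change was measured in each genotype on the same scale. In Col 5 members were higher and 5 lower at 26 d than at 14 d, which is 27% of the members beside 39.4% of all genes called (19.3% higher, 20.2% lower). In chlorella-1 9 were higher and 12 lower, 56.8% beside 71.2% of all genes (35.2% higher, 36% lower). The 9 include the 6 members that reached the sum of 100 counts only with these 26 d libraries. The 12 include MIR169i, MIR169j, MIR169l and MIR157c, which reached it only with their 14 d libraries of both genotypes. MIR169i is also among the 5 lower in Col. These numbers of members are thus a description. With no filter on low counts the shares of all genes were 26.5% and 52.7%, over a set that adds genes with too few reads for the filter. The Col count depended on single libraries: it was 5 without replicate 2 or 3 at 14 d and 6 without replicate 2 at 26 d.

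miR398 acts on the copper/zinc superoxide dismutases CSD1 and CSD2 and on their copper chaperone CCS. MIR398b had 0.0551, 0.104 and 0.314 CPM in Col at 14 d and 1.79, 1.04 and 1.92 at 26 d, without overlap (log2 fold change 3.36, SE 0.66, adjusted p = 0.00219). In chlorella-1 it had 0.268, 0.482 and 0.368 CPM at 14 d and 0.801, 0.709 and 2.55 at 26 d (1.86, SE 0.61, adjusted p = 0.0168), a call lost without replicate 1 at 14 d (0.0623) and, at a log2 fold change of 1.09, without replicate 3 at 26 d (0.0929). All of MIR398b lies opposite an exon of AT5G14550, which rose with age in Col (1.06, SE 0.27, adjusted p = 0.00822).

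MIR398c, 96.6% identical to MIR398b as a hairpin, rose in Col (1.90, SE 0.67, adjusted p = 0.0403). That call was lost without Col replicate 1 (0.138) or 2 (0.14) at 14 d, Col replicate 1 (0.141) or 2 (0.0537) at 26 d, or chlorella-1 replicate 2 at 14 d (0.059). CSD1 (-1.44), CSD2 (-3.17) and CCS (-1.26) all fell with age in Col, with adjusted p = 0.000337, 1.1e-05 and 0.00216. In chlorella-1 CSD2 (-3.13) and CCS (-1.61) fell and CSD1 rose (0.56, adjusted p = 0.0293).

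The miR156 family, which holds SPL genes down in young plants, gave few reads. MIR157c had 34, 14 and 19 counts in Col and 9, 17 and 7 in chlorella-1 at 14 d, then 0, 11 and 0 in Col and 0 in chlorella-1 at 26 d. In chlorella-1 it was at least 10.7-fold lower with age (adjusted p = 0.0127). MIR157c reached the count sum that defines members only with its 14 d libraries of both genotypes. This fall thus rests on reads that also chose it, and stands as a description. MIR156d had 0.0642 to 0.332 CPM over the 12 libraries and passed no comparison in the fit of all 12 libraries; MIR156d rose with age in chlorella-1 without replicate 2 at 26 d (log2 fold change 1.47, adjusted p = 0.0245) and with RLE scaling (1.29, adjusted p = 0.0406). Of the 11 listed SPL genes, 10 were tested. With age none passed in Col, where 39.4% of all genes were called. In chlorella-1 2 rose and 6 fell, where 71.2% of all genes were called (35.2% higher, 36% lower).

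MIR162a, whose product targets DCL1, fell with age in chlorella-1, from 0.410, 0.369 and 0.332 CPM to 0.166, 0.0686 and 0.207 (log2 fold change -1.29, SE 0.48, adjusted p = 0.0295). The call was lost in the fit of only the groups compared (0.0531) and without replicate 1 (0.0759) or 2 (0.0623) at 14 d or replicate 2 at 26 d (0.0721). MIR167a fell as well (-1.18, SE 0.44, adjusted p = 0.0293). Its call was lost in that fit (0.0656), with the replicate block (0.0502), and without replicate 2 (0.0836) or 3 (0.0676) at 14 d or replicate 2 at 26 d (0.0719).

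MIR414 rose with age in both genotypes, from 1.05, 1.42 and 1.5 CPM to 2.83, 2.77 and 3.35 in Col (log2 fold change 1.18, SE 0.20, adjusted p = 0.000916) and from 1.39, 1.41 and 1.44 to 2.43, 3.29 and 3.12 in chlorella-1 (1.06, SE 0.20, adjusted p = 0.000577). Its hairpin has the weakest fold of the 37 for its length, -19.4 kcal/mol per 100 nucleotides. MIR4228 lies wholly inside an exon of the misc_RNA gene AT1G09915. It had 18.8, 23.2 and 17.5 CPM at 14 d and 23.4, 34.4 and 34.3 at 26 d in chlorella-1 (0.63, SE 0.22, adjusted p = 0.0244), and AT1G09915 rose by 0.61 (SE 0.21, adjusted p = 0.0242). The MIR4228 call was lost without replicate 1 (0.075) or 3 (0.0916) at 14 d or replicate 2 at 26 d (0.0623).

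MIR5642a and MIR5642b are 98.4% identical, and each ends 530 bp before an annotated 18S ribosomal RNA gene, so reads could be split between the copies. On the same strand, 369 of the 372 bp of MIR5642b lie in an exon of AT2G01008, and 92 bp of MIR5642a lie in the lncRNA AT3G06325, so their reads cannot be told apart there. MIR5642b had 2, 2 and 12 counts in Col at 14 d and 21, 522 and 20 at 26 d. In chlorella-1 it had 2, 2 and 2 counts at 14 d and 2, 2 and 115 at 26 d. The rise in Col (log2 fold change 5.21, SE 1.73, adjusted p = 0.0323) rested on the library with 522 counts: without it the value was 1.90 (adjusted p = 0.343). The call was also lost in limma voom (0.156) and without replicate 1 (0.11), 2 (0.11) or 3 (0.0537) at 14 d. MIR5642a in chlorella-1 at 26 d had 14.6, 53.8 and 15.0 CPM, so replicate 2 stood apart there. AT3G06325 had 9.94, 49.2 and 11.5 CPM and AT2G01008 had 22.95, 110.7 and 20.95 CPM in the same libraries. MIR5642a passed no comparison in the fit of all 12 libraries. Without that replicate 2 it was lower in chlorella-1 than in Col at 26 d (log2 fold change -1.19, adjusted p = 3.37e-05) and lower with age in chlorella-1 (-1.5, adjusted p = 3.56e-06) and in Col (-0.83, adjusted p = 0.000261). The fall of MIR5642a in Col also passed in the fit of only the Col libraries (-0.78, adjusted p = 0.000892).

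**Figure D5:**
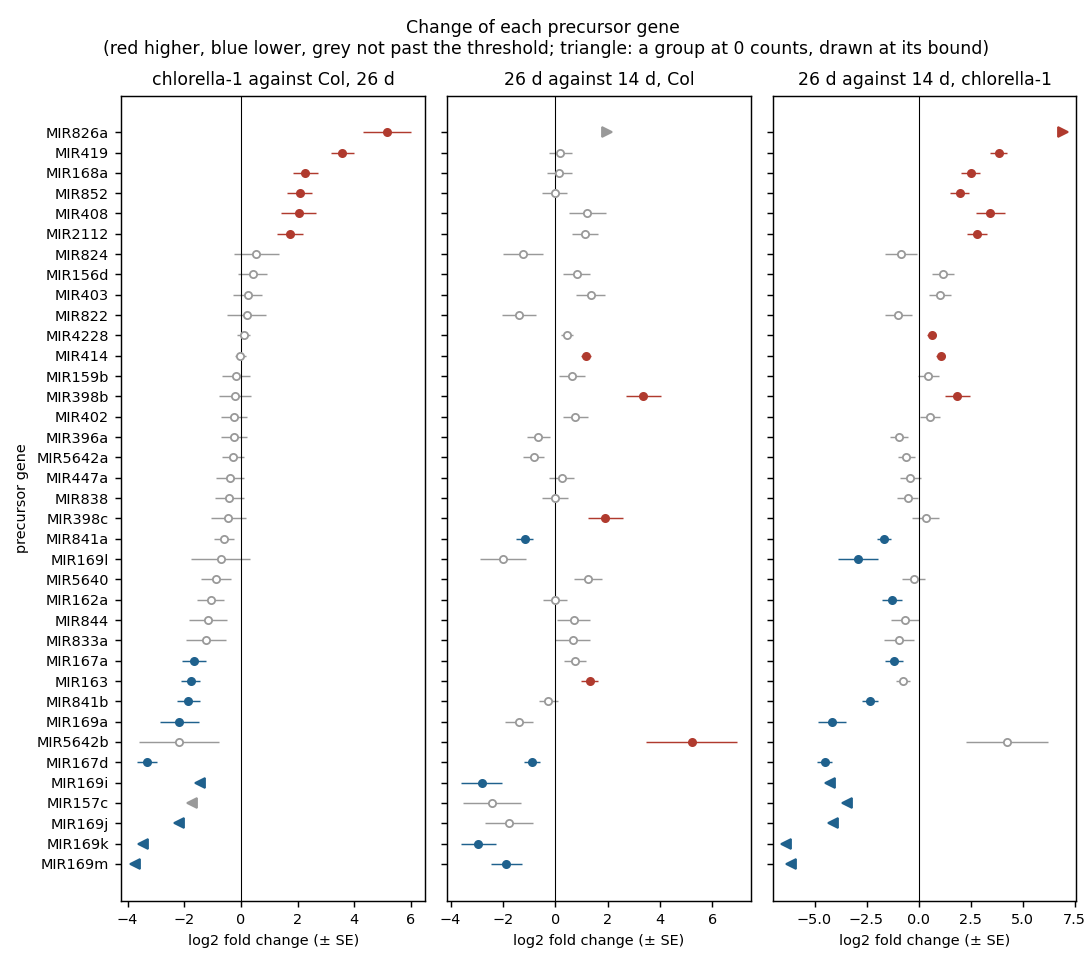
Log2 fold changes (± SE) of the 37 precursor genes between genotypes at 26 d and with age in each genotype, ordered by the first panel. Filled points passed the threshold (red higher, blue lower), grey ones did not, and triangles stand at the bound of a gene with 0 counts in a group; 6 members are higher and 9 lower in the first panel.

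The remaining 11 members gave few reads and, like MIR156d, passed no comparison in the fit of all 12 libraries. MIR159b, which acts on GAMYB-like MYB genes, ranged from 0.161 to 0.534 CPM and MIR396a, which acts on growth-regulating factors, from 0.121 to 0.482. MIR396a was lower with age in chlorella-1 without replicate 3 at 26 d (log2 fold change -1.45, adjusted p = 0.0142) and in limma voom (-1.06, adjusted p = 0.0429). MIR403, whose product targets AGO2, ranged from 0.0348 to 0.345 CPM, and MIR824, which targets AGL16, from 0.0345 to 0.461. MIR838, MIR5640, MIR447a, MIR402, MIR822, MIR833a and MIR844 lay between 0 and 0.481 CPM. MIR5640 rose with age in Col in the fit of only the Col libraries (log2 fold change 1.29, adjusted p = 0.0403) and without chlorella-1 replicate 2 at 26 d (1.25, adjusted p = 0.0441). At 26 d the genotypes overlapped in each of the 7 but MIR833a, whose Col libraries (0.164 to 0.272 CPM) lay above those of chlorella-1 (0 to 0.151 CPM; log2 fold change -1.23, SE 0.70, adjusted p = 0.144).

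Of the genes that make microRNAs, 18 were listed and tested, and at 26 d 4 were higher and 9 lower in chlorella-1, with a median of -0.60 beside -0.11 over all genes. All counts in the lists that follow stand beside the 63.3% of all genes called at 26 d, 31.5% higher and 31.8% lower. DCL1 (-0.76), the methyltransferase gene HEN1 (-1.09, SE 0.26, adjusted p = 0.00366) and the cap-binding gene CBP80 (-0.65, SE 0.26, adjusted p = 0.0493) were lower, while the export gene HST (0.93, SE 0.23, adjusted p = 0.00412) was higher. HYL1 (-0.84, SE 0.44) and SE (0.29, SE 0.14) did not pass. Of 13 genes for microRNA action and turnover, 2 were higher and 4 lower, and AGO1 and AGO2 (0.35, SE 0.25) were not among them. Of 9 genes of the trans-acting siRNA pathway, 8 were tested, 6 were lower and none was higher, among them RDR6 (-2.07, SE 0.28, adjusted p = 6.69e-05). Of 41 listed targets of the members' families, 35 were tested, with 10 higher and 12 lower.

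The age change differed between genotypes for 10 members, 27% beside 42.2% of all genes (21.2% higher, 21% lower) and 28.4% with no filter, with 3 more positive and 7 more negative in chlorella-1. The 3 more positive members, MIR419, MIR168a and MIR852, reached the count sum that defines members only with their 26 d chlorella-1 libraries. Their number is thus a description. The members' median difference was -0.65 beside -0.11 over all genes.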

How the data were processed

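The deposited table gives read counts per gene for each of the 12 libraries, per the file headers; its FPKM columns were not used. The genome TAIR10 and the tools DESeq2, STAR, HTSeq, StringTie and HISAT2 are named, per the submitters' processing notes; their roles, versions and strand setting are not given in the sources used here. The 50 rows without a gene name entered no test (0.0771% to 0.216% of counts). In edgeR 4.0.16 (R 4.3.3), filterByExpr kept 20398 genes, TMM scaled the libraries, and 1 quasi-likelihood model was fitted to all 12, with two-sided tests and Benjamini-Hochberg adjustment over all genes. Folds against 0 counts are bounds at 3 counts over the group; bounds cover counting error only. Sequences, hairpin folds (ViennaRNA 2.7.2) and overlaps come from TAIR10.1. Target sites allowed a penalty of at most 5.0. Alternatives were another scaling, filters, limma voom 3.58.1, DESeq2 1.42.0, a minimum change, fewer groups, the replicate block and each library left out. The members, lists and naming rule (all members, the most changed and most abundant in full) were chosen with earlier results of these data known.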

Additional observations from a re-analysis of the deposited data

Results flagged for a closer look

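For 10 members the age change differed between the genotypes by the interaction term of the edgeR fit; values are the log2 age change in chlorella-1 minus that in Col, with adjusted p over all genes. MIR167d changed by -0.89 in Col and -4.52 in chlorella-1, a difference of -3.63 (SE 0.45, adjusted p = 0.000135). MIR419 changed by 0.18 and 3.85, a difference of 3.67 (SE 0.61, adjusted p = 0.000775). MIR169m and MIR169k, at 0 counts in chlorella-1 at 26 d, had fitted differences of -7.35 (adjusted p = 0.00316) and -6.50 (adjusted p = 0.0147), whose size depends on the prior count. MIR163 rose by 1.31 in Col and did not pass in chlorella-1 (-0.74), a difference of -2.05 (SE 0.47, adjusted p = 0.00525). MIR841b differed by -2.07 (SE 0.54, adjusted p = 0.0104) and MIR168a by 2.36 (SE 0.66, adjusted p = 0.015). MIR419, MIR168a and MIR852 reached the count sum that defines members only with their 26 d chlorella-1 libraries. Their differences thus rest on reads that also chose them, and stand as a description.

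MIR167a differed by -1.93 (SE 0.60, adjusted p = 0.0231), MIR169a by -2.76 (SE 0.87, adjusted p = 0.0245) and MIR852 by 2.01 (SE 0.64, adjusted p = 0.0268). These 3 lost the call when single libraries were left out: MIR167a without Col replicate 1 (0.0589) or 3 (0.052) at 14 d, Col replicate 3 at 26 d (0.0582), or chlorella-1 replicate 2 (0.0572) or 3 (0.0501) at 14 d. MIR169a lost it without Col replicate 1 (0.0559) or 2 (0.0508) at 14 d, Col replicate 2 (0.0596) or 3 (0.0602) at 26 d, chlorella-1 replicate 2 at 14 d (0.0536) or replicate 3 at 26 d (0.0504), and in limma voom (0.0519). MIR852 lost it without Col replicate 2 (0.0604) or 3 (0.0722) at 14 d, Col replicate 2 (0.0548) or 3 (0.0606) at 26 d, chlorella-1 replicate 1 (0.0673) or 3 (0.066) at 14 d, or replicate 2 at 26 d (0.053).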

How the results depend on the processing

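Of the called members, 9 of 15 (genotype at 26 d), 4 of 10 (age in Col), 16 of 21 (age in chlorella-1) and 7 of 10 (difference of age changes) kept direction and call under every alternative that gave a test. At 26 d MIR169k and MIR169m, among those 9, had no test in the fit of only the groups compared. At 14 d the fit of only the groups compared called 1 member against 0. Leaving out single libraries gave 5 to 13 members for age in Col. The genotype difference of the age change of MIR5642a turned from 0.24 to -0.67 (adjusted p = 0.0122) without chlorella-1 replicate 2 at 26 d, and ranged from -0.67 to 0.63 over the libraries left out; the cause was not tested. RLE scaling moved the median of all genes by 0.14 at 26 d.

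Same-numbered replicates did not deviate together (correlations -0.13 to 0.15), so the numbers were not taken as pairs; with the replicate block the counts were 0, 15, 9, 21 and 10 in the order of the report's comparisons. A fit of only the groups compared together with the replicate block, chosen after seeing the data, called 1 member at 14 d, and 8 (5 higher, 3 lower) against 15 at 26 d, all 8 among the 15, with 27 members tested in place of 37; for MIR167a and MIR2112 the 26 d call was lost (adjusted p = 0.0708 and 0.0802), as were age calls of MIR398c (Col, 0.0506) and, in chlorella-1, MIR162a (0.148), MIR167a (0.179), MIR169l (0.0557) and MIR4228 (0.0512). MIR167d (Col) and MIR4228 (chlorella-1) do not reach a minimum log2 age change of 1. Most members hold few reads, which limits what could be detected.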
